A study of Homo sapiens with 3 samples.

Results

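The 10 genes described here encode 3 receptors of the EGF receptor family (EGFR, ERBB2 and ERBB3), 6 ligands that bind EGFR (HBEGF, TGFA, AREG, EREG, EPGN and BTC) and the neuregulin NRG1. They were chosen by symbol, as named members of the family, with earlier results of these data known. All 10 were found among the 55773 gene symbols of the expression table. RNA sequencing had been carried out on HaCaT, a spontaneously immortalised human keratinocyte line, grown in DMEM with fetal bovine serum. All 3 lines carried the oncogenic HRAS mutant G12V, the control included. The first had been transduced with an empty vector, the second with wild-type THG-1, a leucine zipper protein encoded by TSC22D4, and the third with the THG-1 mutant S264A, in which a serine is replaced by alanine. There was 1 library per line. The promoter that drives the transgenes, and whether a line is a clone or a pool of cells, were not given in the sources used here.

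EGFR and ERBB3 are receptor tyrosine kinases that pair with each other or with ERBB2 when a ligand binds. ERBB2 has no known ligand of its own, and ERBB3 has little kinase activity and signals through its partner. The ligands are made as membrane-bound precursors and are cut free at the cell surface by ADAM metalloproteinases. In keratinocytes, ligands made by the cells themselves act back on EGFR, which drives proliferation and migration and holds back differentiation, and the RAS and ERK cascade is one of the pathways below the receptor.

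The depth was 32055052 reads with empty vector, 12733479 with wild-type THG-1 and 14022885 with S264A, so that low genes were measured least precisely in both THG-1 lines. Levels are given in RPKM, reads scaled to the length of the gene and the depth of the library, a scale on which different genes can be compared. TSC22D4 stood at 7.98 RPKM with empty vector, 64.9 with wild-type THG-1 and 51.1 with S264A. HRAS, whose row does not separate transgene from native transcript, stood at 23.9, 27.8 and 22.4 RPKM in the same order. All 10 keratinocyte markers looked at, among them KRT5, KRT14 and TP63, were at 17.4 RPKM or more in every line, with sums of 1102, 1471 and 1491 RPKM. Among 6 immune markers CD68, also found in epithelial cells, stood at 0.941, 5.21 and 1.70 RPKM, the order of lines seen below for several ligands, and its part in those results was not tested. The sums of the immune markers were 1.25, 5.46 and 2.09 RPKM, and the leukocyte marker PTPRC had 1, 0 and 1 reads. Of 4 endothelial markers VWF alone reached 1 RPKM, in the S264A line (1.51 RPKM), and no fibroblast or melanocyte marker did.

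With 1 library per line there was no spread between replicates and no test could be made. Beside each ratio stands its 95% interval (exact Clopper-Pearson, computed on the reads), which covers counting error only and says nothing of the variation between cultures. A gene was compared when it reached 1 RPKM in at least 1 of the lines compared, and it was counted as higher or lower when its level plus 1 RPKM differed at least 2-fold. In bulk RNA, fewer cells with a transcript and less transcript per cell cannot be told apart.

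EGFR was the most abundant of the 10 transcripts in every line, and it was lower in both THG-1 lines than with empty vector. It stood at 40.9 RPKM with empty vector (17001 reads), 28.6 with wild-type THG-1 (4715 reads) and 28.0 with S264A (5083 reads). Wild type stood at 0.698 times the empty-vector level (interval 0.676 to 0.721) and S264A at 0.683 times (0.662 to 0.705). The S264A and wild-type lines had nearly the same level, with a ratio of 0.979 and an interval of 0.941 to 1.02. On the log2 scale of RPKM + 1 the EGFR difference was -0.50 for wild type, below which lay 9.49% of the genes compared, and -0.53 for S264A, below which lay 4.87%.

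ERBB3, the receptor for neuregulins, was instead higher in both THG-1 lines. Its level was 3.20 RPKM with empty vector, 5.21 with wild-type THG-1 and 5.18 with S264A. Over empty vector this was 1.63-fold (1.46 to 1.81) in wild type and 1.62-fold (1.46 to 1.79) in S264A, and the ratio between both THG-1 lines was 0.993 (0.886 to 1.11). ERBB2, the shared partner receptor, was at 7.62, 7.27 and 7.01 RPKM. Its ratio to empty vector was 0.955 (0.885 to 1.03) in the wild-type line and 0.920 (0.855 to 0.990) in the S264A line. None of the 3 receptors reached a 2-fold difference in any comparison, and the small log2 differences between S264A and wild type, -0.03 for EGFR, -0.05 for ERBB2 and -0.01 for ERBB3, turned to 0.08, 0.05 and 0.09 when the libraries were scaled to an equal sum.

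Within each library the balance of the receptors does not depend on a factor applied to the whole library. ERBB3 stood at 0.0783 ± 0.0027 times the level of EGFR with empty vector (counting SE), at 0.182 ± 0.0081 with wild-type THG-1 and at 0.185 ± 0.0078 with S264A. EGFR made up 79.1% of the summed level of the 3 receptors with empty vector, 69.6% with wild-type THG-1 and 69.6% with S264A. The receptor balance thus differed between the empty-vector line and both THG-1 lines, and hardly between wild type and S264A.

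**Figure D1:**
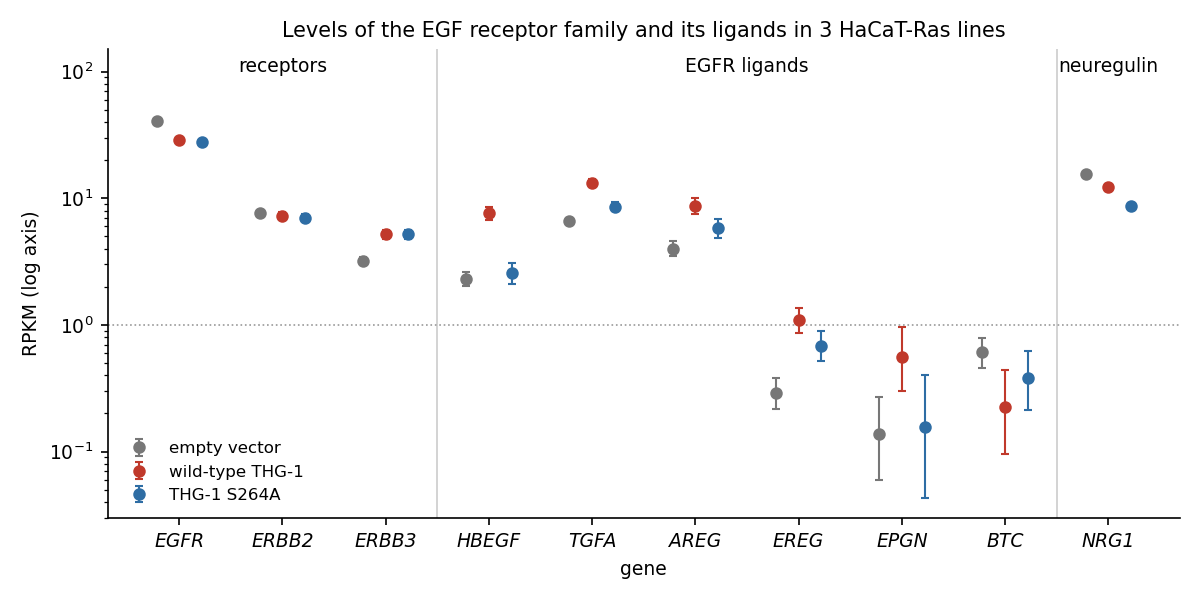
Level of each of the 10 genes in RPKM (log axis) in the empty-vector (grey), wild-type THG-1 (red) and S264A (blue) lines, 1 library each, with 95% counting intervals as bars and 1 RPKM as a dotted line. Both THG-1 lines sit together for the receptors, at 28.6 and 28.0 RPKM for EGFR, while for HBEGF the S264A line (2.58 RPKM) sits beside the empty vector (2.31 RPKM) and below wild type (7.60 RPKM).

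Among the ligands of EGFR the order of the lines was different. HBEGF, TGFA, AREG, EREG and EPGN were all highest with wild-type THG-1, and for each of these 5 the S264A line lay between wild type and empty vector. HBEGF encodes heparin-binding EGF-like growth factor, a ligand of EGFR and ERBB4 linked to keratinocyte migration in wounds. Its level was 2.31 RPKM with empty vector (223 reads), 7.60 with wild-type THG-1 (292 reads) and 2.58 with S264A (109 reads).

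HBEGF was 3.30-fold higher (2.76 to 3.94) with wild-type THG-1 than with empty vector. In S264A its ratio to empty vector was 1.12, with an interval of 0.880 to 1.41, and its ratio to wild type was 0.339 (0.269 to 0.424). The wild-type line was thus the high one, and the counting intervals of the levels in the other two overlapped. HBEGF was the only one of the 8 members compared that was at least 2-fold higher with wild-type THG-1 on the RPKM + 1 scale (log2 difference 1.38), against 4.53% of the 11993 genes compared, and none of the 8 was lower, against 1.54% (6.07% in either direction). With 5 RPKM added in place of 1 the difference was 0.79, under the 2-fold rule. Between S264A and wild type HBEGF was likewise the only one of 8 members at least 2-fold lower (-1.27, and -0.73 with 5 RPKM added), against 2.23% of 12069 genes, and none was higher, against 1.55% (3.78% in either direction). None of the 7 members compared was at least 2-fold higher or lower in S264A than with empty vector, against 2.99% of 12010 genes higher and 0.824% lower (3.81% in either direction).

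TGFA encodes transforming growth factor alpha, an EGFR ligand long known from keratinocytes. It was the most abundant EGFR ligand in every line, at 6.61 RPKM with empty vector, 13.2 with wild-type THG-1 and 8.55 with S264A. Over empty vector this was 1.99-fold (1.82 to 2.19) in wild type and 1.29-fold (1.17 to 1.43) in S264A. S264A stood at 0.649 times the wild-type level (0.583 to 0.721). The 3 counting intervals of TGFA did not overlap, so that S264A lay above the empty vector as well as below wild type.

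AREG encodes amphiregulin, an EGFR ligand and autocrine growth factor of keratinocytes. It was at 3.99 RPKM with empty vector (211 reads), 8.72 with wild-type THG-1 (183 reads) and 5.80 with S264A (134 reads). The wild-type line was 2.18-fold (1.78 to 2.67) and the S264A line 1.45-fold (1.16 to 1.81) above empty vector, and S264A stood at 0.665 times the wild-type level (0.528 to 0.835). AREG reached 2-fold as a plain ratio but not with 1 RPKM added (log2 difference 0.96). The table also holds AREGB, which RefSeq lists as another name of AREG, with 1, 0 and 0 reads. The counting of reads shared by both rows is not described in the sources used here, so that the level of AREG is uncertain in this respect.

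EREG and EPGN were low. EREG encodes epiregulin, a ligand of EGFR and ERBB4, and was at 0.289 RPKM with empty vector (53 reads), 1.09 with wild-type THG-1 (79 reads) and 0.686 with S264A (55 reads). Wild type was 3.75-fold (2.62 to 5.42) and S264A 2.37-fold (1.60 to 3.53) above empty vector, and S264A stood at 0.632 times wild type (0.440 to 0.903). It entered the comparisons through its level in the wild-type line, and on the RPKM + 1 scale its log2 difference from empty vector was 0.69. EPGN encodes epigen, an EGFR ligand of low affinity, and had 8, 13 and 4 reads, or 0.138, 0.563 and 0.157 RPKM. The wild-type ratio of 4.09 had a wide interval (1.57 to 11.4), and that of S264A (1.14) spanned 0.252 to 4.27.

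BTC, which encodes betacellulin, a ligand of EGFR and ERBB4, had the opposite order. It was at 0.609 RPKM with empty vector (55 reads), 0.223 with wild-type THG-1 (8 reads) and 0.380 with S264A (15 reads). Its ratio to empty vector was 0.366 (0.151 to 0.773) in the wild-type line and 0.623 (0.327 to 1.12) in the S264A line. BTC and EPGN stayed below 1 RPKM in every line and did not enter the 2-fold counts.

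EPGN, EREG, AREG and BTC are neighbours on chromosome 4 in RefSeq (GRCh38.p14), with no other protein-coding gene listed between them. The first 3 of them were higher in wild type and the fourth lower. The promoter table of RefSeq held 8 of the 10 genes, ERBB3 and NRG1 being the others. The 250 bases before the start are printed for the 3 neighbours that were higher together and for HBEGF, the ligand that passed the 2-fold rule. They were searched on both strands for TATAAA, for the AP-1 motif TGANTCA, for the cyclic AMP response element TGACGTCA for the NF-kB motif GGGNNTTCC and for a longer form of the NF-kB motif. Capitals mark every match, and all sequences run 5′ to 3′ on the strand of the gene.
EPGN (chr4:74308220-74308469, plus strand): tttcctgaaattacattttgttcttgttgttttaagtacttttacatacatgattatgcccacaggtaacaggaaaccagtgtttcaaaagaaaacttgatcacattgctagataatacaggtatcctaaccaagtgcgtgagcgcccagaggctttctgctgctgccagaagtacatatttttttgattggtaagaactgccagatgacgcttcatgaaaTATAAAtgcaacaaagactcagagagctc
EREG (chr4:74364895-74365144, plus strand): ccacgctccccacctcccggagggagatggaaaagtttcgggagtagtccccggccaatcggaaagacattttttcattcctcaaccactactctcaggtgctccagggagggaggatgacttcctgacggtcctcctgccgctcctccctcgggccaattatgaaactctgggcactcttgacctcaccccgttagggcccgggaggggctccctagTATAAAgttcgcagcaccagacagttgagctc
AREG (chr4:74444886-74445135, plus strand): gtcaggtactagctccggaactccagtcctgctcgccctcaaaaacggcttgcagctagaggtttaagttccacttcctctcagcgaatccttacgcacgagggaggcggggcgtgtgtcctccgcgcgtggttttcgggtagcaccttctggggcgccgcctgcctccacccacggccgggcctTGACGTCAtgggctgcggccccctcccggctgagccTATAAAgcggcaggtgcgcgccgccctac
HBEGF (chr5:140346604-140346853, minus strand): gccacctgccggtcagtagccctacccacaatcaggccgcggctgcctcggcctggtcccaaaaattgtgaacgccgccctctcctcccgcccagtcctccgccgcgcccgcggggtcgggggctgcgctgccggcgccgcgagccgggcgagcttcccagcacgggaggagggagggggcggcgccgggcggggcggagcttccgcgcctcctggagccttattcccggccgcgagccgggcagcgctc

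TATAAA began 29 bases before the start of EPGN, 32 before that of EREG and 29 before that of AREG, each time on the strand of the gene. Of all 35116 promoters of the same length, 10.7% held TATAAA on either strand, and in 2.30% it began 20 to 40 bases before the start on the strand of the gene. The window of BTC held none of the 5 motifs. AREG held TGACGTCA from 65 to 58 bases before its start, a motif found in 1.65% of promoters. HBEGF held no match to any of the 5. Its window was rich in G and C (76.4%, against a median of 58% over all promoters), and so was the first start listed for TGFA (75.6%), whereas EPGN stood at 38%. TGANTCA was present in 6.57% of promoters, GGGNNTTCC in 5.78% and the longer NF-kB form in 1.73%, and none of these 3 lay in the windows of the 6 EGFR ligands. In ERBB2 TGANTCA began 222 bases before the start. EGFR has 2 starts in the table, and the window of the second held TGANTCA at 232 and 136 bases and TATAAA at 146 and 36 bases before it, while that of the first held no match. These are matches of letters in a short window, and binding was not measured.

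NRG1, the neuregulin of the set, binds ERBB3 and ERBB4 and not EGFR. It was the second most abundant of the 10 transcripts with empty vector and was lower in both THG-1 lines, most so in S264A. The level was 15.5 RPKM with empty vector (3808 reads), 12.2 with wild-type THG-1 (1187 reads) and 8.61 with S264A (924 reads). Wild type stood at 0.785 times (0.735 to 0.838) and S264A at 0.555 times (0.516 to 0.596) the empty-vector level, and S264A stood at 0.707 times wild type (0.648 to 0.771). The 3 counting intervals did not overlap. On the log2 scale the S264A difference from empty vector was -0.78, below which lay 1.69% of the genes compared, while the wild-type difference of -0.33 had 19.7% of genes below it. For NRG1 the S264A line, not wild type, was therefore the one farthest from the empty vector.

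**Figure D2:**
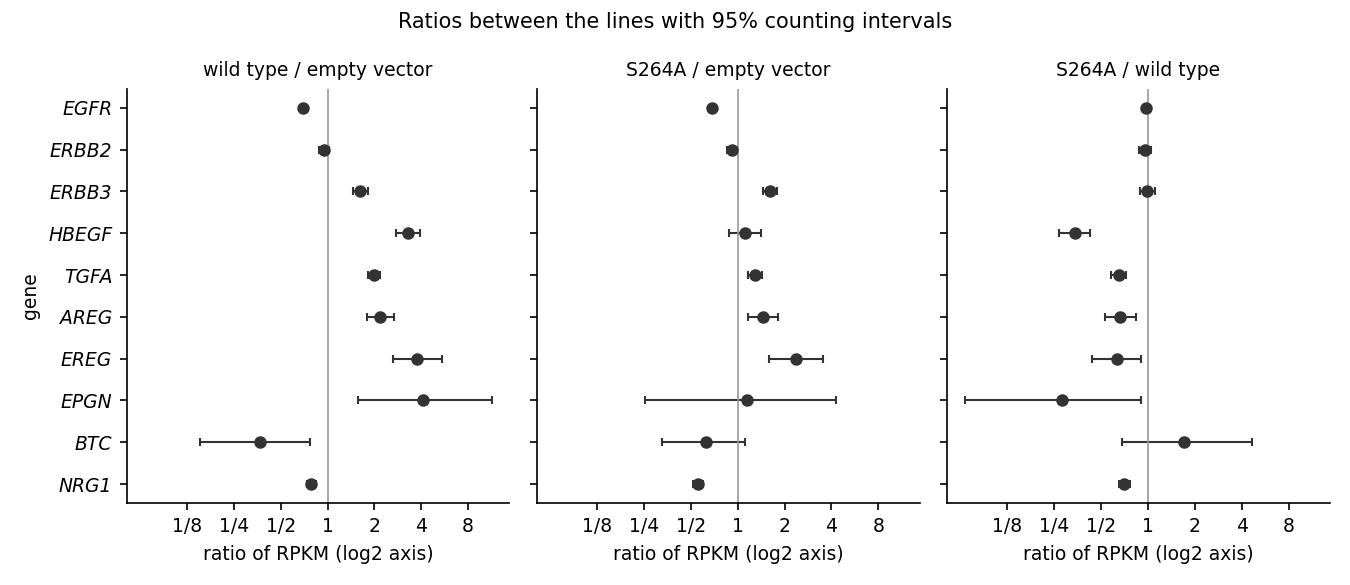
Ratio of RPKM between the lines for each gene (log2 axis, points) with exact 95% counting intervals (bars), for wild type over empty vector, S264A over empty vector and S264A over wild type. EGFR and NRG1 lie below 1 and ERBB3 above 1 against the empty vector in both THG-1 lines, and S264A over wild type is below 1 for HBEGF (0.339), TGFA (0.649), AREG (0.665), EREG (0.632) and EPGN (0.279).

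Counting error alone left most directions in wild type clear, and fewer in S264A. Against empty vector the interval lay above 1 for 6 of the 10 genes in wild type, below 1 for 3 and across 1 for ERBB2. In S264A it lay above 1 for 4 genes (ERBB3, TGFA, AREG and EREG), below 1 for 3 (EGFR, ERBB2 and NRG1) and across 1 for HBEGF, EPGN and BTC. Between S264A and wild type it lay below 1 for 6 genes and across 1 for the 3 receptors and BTC. The share of all genes with an interval clear of 1 was not computed. Such intervals are narrow for genes with many reads. Of the 22 adaptors and transducers described below, it lay above 1 for 9 and below 1 for 8 in wild type against empty vector. These counts therefore say nothing particular of the family. The comparisons with the empty vector share that library. Among the 8 members compared the median log2 difference between wild type and empty vector was 0.63, and over all genes compared it was -0.01. For S264A against empty vector the medians were 0.11 over 7 members and 0.02 over all genes, and for S264A against wild type -0.38 over 8 members and 0.02 over all genes. EREG is among the 8 only through its level in wild type (1.09 RPKM), the line where it was highest, and is not among the 7. The medians of the members thus do not cover the same genes, and those over 8 are partly set by this filter.

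The order of the 10 levels also differed between lines. With empty vector it ran EGFR, NRG1, ERBB2, TGFA, AREG, ERBB3, HBEGF, BTC, EREG and EPGN, and every neighbour in this order differed beyond counting error except EREG and EPGN. With wild-type THG-1 TGFA stood beside NRG1 in second place (ratio 1.08, 0.990 to 1.18), and HBEGF came to the level of AREG above it (1.15, 0.949 to 1.39) and of ERBB2 below it (1.04, 0.913 to 1.19). EPGN and BTC, the lowest pair, did not differ beyond counting error there either. In S264A NRG1 and TGFA were level (1.01, 0.907 to 1.12), as were AREG and ERBB3 (1.12, 0.922 to 1.35) and BTC and EPGN (2.42, 0.770 to 10.0).

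Summed over the 7 ligands, the level was 29.5 ± 0.46 RPKM with empty vector (counting SE), 43.5 ± 1.00 with wild-type THG-1 and 26.8 ± 0.73 with S264A. Without NRG1, the 6 EGFR ligands came to 13.9 ± 0.39, 31.4 ± 0.93 and 18.1 ± 0.68 RPKM. NRG1 made up 52.7% of the ligand sum with empty vector, 28.0% with wild-type THG-1 and 32.2% with S264A. HBEGF held 16.5% of the sum of the 6 EGFR ligands with empty vector, 24.2% with wild-type THG-1 and 14.2% with S264A. TGFA held the most of it in every line, with 47.4%, 42.0% and 47.1%.

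The summed level of the 3 receptors was 51.7 ± 0.36 RPKM with empty vector, 41.1 ± 0.53 with wild-type THG-1 and 40.2 ± 0.49 with S264A. Set against EGFR in the same library, the 6 EGFR ligands stood at 0.341 ± 0.0099 times its level with empty vector, 1.10 ± 0.036 with wild-type THG-1 and 0.649 ± 0.026 with S264A. In these transcript levels wild type therefore combined the highest ligand sum with a lowered receptor sum, and S264A shared the receptor sum of wild type with a ligand sum nearer to the empty vector. NRG1 stood at 4.84 ± 0.18 times the level of ERBB3 with empty vector, 2.34 ± 0.12 with wild-type THG-1 and 1.66 ± 0.086 with S264A.

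**Figure D3:**
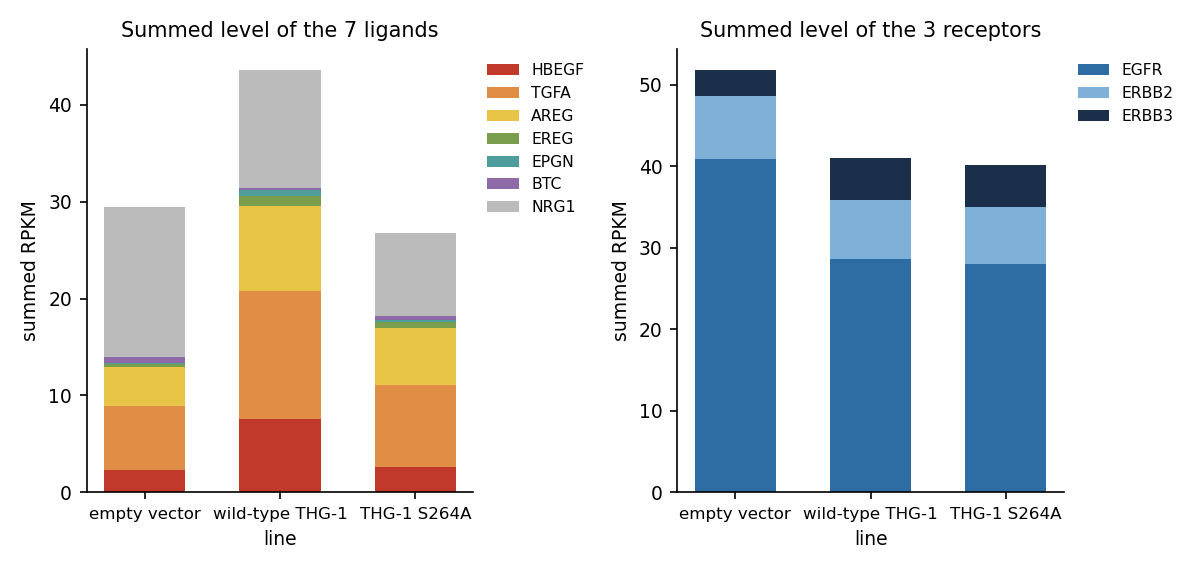
Summed RPKM of the 7 ligands (left) and the 3 receptors (right) in each line, 1 library each, with the part of each gene as a coloured segment and both axes starting at 0. The ligand bar is tallest with wild-type THG-1 (43.5 RPKM), and the NRG1 segment is the largest with empty vector (15.5 RPKM).

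Of the remaining family genes looked at, NRG4 alone reached 1 RPKM, in the empty-vector and S264A lines. It is not part of the ligand sums above. ERBB4, the fourth receptor, had 11, 2 and 4 reads, and EGF itself had 2, 0 and 2 reads. NRG3, a neuregulin of the nervous system, had 1, 6 and 0 reads. NRG2, a ligand of ERBB3 and ERBB4, had 9 reads with empty vector, 31 with wild-type THG-1 and 50 with S264A, or 0.0618, 0.536 and 0.785 RPKM. Its ratio to empty vector was 8.67 (4.03 to 20.7) in the wild-type line and 12.7 (6.18 to 29.4) in the S264A line. NRG4, a ligand of ERBB4, went the other way with 2.05, 0.718 and 1.40 RPKM, and its ratio to empty vector was 0.350 (0.251 to 0.477) in the wild-type line and 0.684 (0.541 to 0.858) in the S264A line.

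Of the 14 genes that release the ligands or control that release, 13 were compared. This list and the pathway lists below were chosen with earlier results of these data known. ADAM8, ADAM19 and TIMP3 were at least 2-fold higher than with empty vector in wild type and in S264A, and none was lower. Over all genes compared, 4.53% were higher and 1.54% lower in wild type, and 2.99% and 0.824% in S264A. The median of the list was 0.36 in wild type, or 0.22 with scaling to an equal sum, and 0.18 in S264A. ADAM17, the main sheddase of HBEGF, TGFA, AREG and EREG, was at 5.89, 7.87 and 5.92 RPKM, a ratio of 1.34 (1.24 to 1.44) in the wild-type line and 1.00 (0.929 to 1.09) in the S264A line. ADAM10, which sheds BTC and EGF, was at 15.6, 11.4 and 14.5 RPKM. ADAM8 was at 10.9, 56.7 and 24.0 RPKM. ADAM19, at 2.27, 29.3 and 10.7 RPKM, stood 2.74-fold lower in S264A than in wild type (2.56 to 2.94). TIMP3, an inhibitor of ADAM17 and other metalloproteinases, had another order, with 1.48, 6.21 and 10.1 RPKM, and was 1.63-fold higher in S264A than in wild type (1.44 to 1.86).

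Of the 22 adaptors and transducers below the receptors, 20 were compared. In this list 1 was at least 2-fold higher in wild type than with empty vector and 2 were lower, and none passed in S264A. These are small counts, and the share of higher genes in wild type is near that of all genes (4.53% higher and 1.54% lower in wild type, 2.99% and 0.824% in S264A). The median was -0.01 in wild type, or -0.14 with scaling to an equal sum, and -0.04 in S264A, or -0.08 with each of the other scalings. GRB2, the adaptor that links the receptors to RAS, was at 12.7, 15.0 and 14.1 RPKM, and the adaptor SHC1 at 19.8, 24.1 and 19.7 RPKM. The higher gene was GRB7, an adaptor of ERBB2 (4.12, 9.65 and 7.47 RPKM), which was under the rule when libraries were scaled to an equal sum. The lower ones were GRB10, an adaptor that restrains receptor kinases (4.33, 1.01 and 2.04 RPKM), and VAV3, a guanine nucleotide exchange factor (2.58, 0.605 and 1.55 RPKM). As plain ratios both stood higher in S264A than in wild type, GRB10 2.02-fold (1.64 to 2.51) and VAV3 2.56-fold (1.88 to 3.54).

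Of 25 negative regulators and trafficking genes compared, ERRFI1 alone passed the rule in wild type and none passed in S264A. The count in wild type is near the share of all genes that were higher (4.53%, against 2.99% in S264A) and says nothing particular of the list. The medians were 0.12 in wild type, which turned to -0.01 with scaling to an equal sum, and 0.04 in S264A, which turned to -0.00042 in the authors' normalised values. ERRFI1, which encodes the feedback inhibitor MIG6 that binds the kinase domain of EGFR, was at 3.17 RPKM with empty vector, 9.81 with wild-type THG-1 and 4.50 with S264A. It was 3.09-fold (2.71 to 3.52) above empty vector in wild type and 1.42-fold (1.21 to 1.66) in S264A, and S264A stood at 0.458 times wild type (0.394 to 0.532). CBL, the ubiquitin ligase that marks EGFR for degradation, was at 5.12, 7.69 and 7.81 RPKM.

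Of 20 genes known to respond to EGF, 6 were at least 2-fold higher in wild type than with empty vector, against 4.53% of all genes compared, and none was lower. They were the transcription factor genes EGR1, FOSL1 and MYC, the ERK phosphatase gene DUSP5, the urokinase receptor gene PLAUR and VEGFA. Scaled to an equal sum, EGR1 and VEGFA were under the rule. The median was 0.74, and 0.36 in S264A. In S264A 3 of 19 compared were at least 2-fold higher, namely FOSL1, DUSP5 and DUSP6, against 2.99% of all genes, and DUSP6 was under the rule with each of the other scalings. EGR1 was at 1.77, 4.78 and 1.98 RPKM, an order of lines like that of HBEGF. FOSL1 was at 20.6, 68.4 and 57.0 RPKM and DUSP6 at 13.6, 25.3 and 28.4 RPKM, so that S264A lay near wild type for both. FOS, an early EGF response gene, was at 1.40, 0.800 and 1.15 RPKM.

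**Figure D4:**
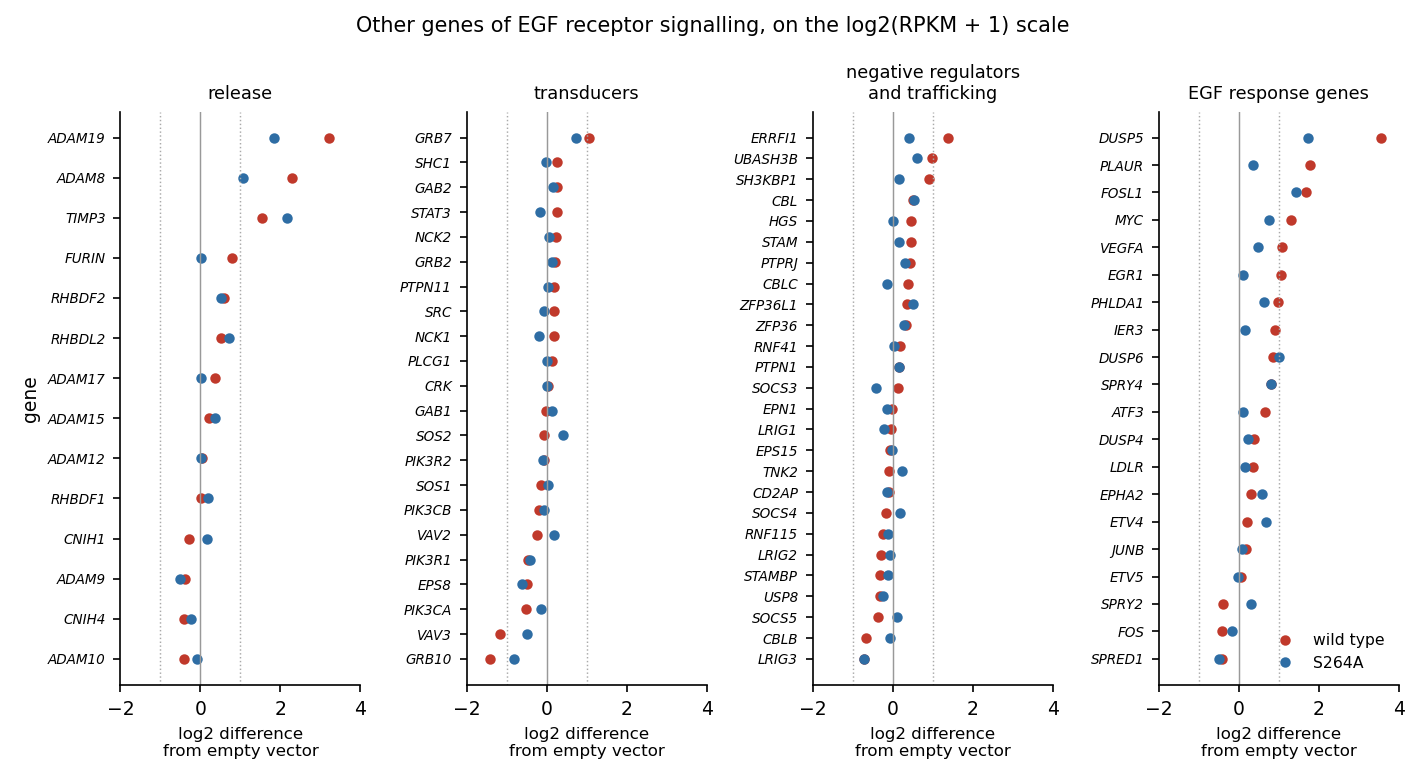
Log2 difference from the empty-vector line on the RPKM + 1 scale for each gene of 4 further lists of EGF receptor signalling, in wild-type THG-1 (red) and S264A (blue), with 2-fold limits as dotted lines. In the EGF response genes 17 of 20 red points lie above 0, against 49.5% of all genes compared. DUSP5, PLAUR, FOSL1, MYC, VEGFA and EGR1 lie past the upper limit, against 4.53% of all genes. The lists were chosen with earlier results of these data known.

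Against the wild-type line, S264A held ADAM8 and ADAM19 of 13 release genes compared at least 2-fold lower, against 2.23% of all genes. DUSP5 and PLAUR were lower among 20 EGF response genes compared. None was lower among 20 transducers or among 25 negative regulators and trafficking genes. None of the 4 lists held a gene at least 2-fold higher on the RPKM + 1 scale, against 1.55% of all genes. PLAUR was at 2.97, 12.7 and 4.10 RPKM and stood at 0.322 times the wild-type level in S264A (0.278 to 0.372). Over all genes compared, 543 were higher and 185 lower in wild type than with empty vector, and 419 and 245 when libraries were scaled to an equal sum. That scaling moved the median of all genes by -0.13, and with it the TGFA difference went from 0.90 to 0.75 and the EGFR difference from -0.50 to -0.66. Between S264A and wild type 187 genes were higher and 269 lower, and 212 and 207 with an equal sum.

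Among 5661 symbols with a mean of at least 5 RPKM, the 3 whose differences from empty vector lay nearest to those of HBEGF over the 3 libraries were SQSTM1, LIPG and KRT18. HBEGF itself had a lower mean than that, so only genes of a higher mean level than its own were ranked. The distances on the log2 plane of both differences were 0.03, 0.03 and 0.13. They depend on the 1 RPKM added, which shrinks the differences of HBEGF (2.31 RPKM with empty vector) more than those of these 3 higher genes. As a plain ratio to empty vector HBEGF was at 3.30 in wild type (2.76 to 3.94). SQSTM1 was at 17.4, 47.5 and 19.3 RPKM, LIPG at 9.60, 26.8 and 10.2 RPKM and KRT18 at 101.2, 245.8 and 103.8 RPKM.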

How the data were processed

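RNA from 3 HaCaT lines with oncogenic HRAS was sequenced on a NextSeq500, 1 library per line, per the labels' protocols. The deposited table gives 57773 rows with 2 columns per library. Per the file headers the first holds expression values, which are RPKM computed by the authors. The second holds normalised expression values, which were found to be RPKM quantile-normalised across the 3 libraries (sorted values identical). The build, per the submitters' processing notes, is hg19. Aligner, counting program, annotation and strand setting remain not given in the sources used here.

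For 234 symbols with several rows, only the row highest on average was kept. Reads were recovered from the steps of the RPKM values: the depth of each library from genes with 1 exon, and the reads of a row from a gene length at which all 3 values were whole within 0.002 reads, chosen by GENCODE release 29. This gave whole reads for all 130 genes used that were above 0, for 69 of them with the GENCODE length itself. Intervals are exact Clopper-Pearson, or exact Poisson for levels. Reads without molecular identifiers are not independent molecules. Depth and read finder and fold rule were tested on simulated data. No count model was run.

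The text names the 10 members, the other family genes, and from 4 pathway lists the genes past the 2-fold rule and 1 or 2 best-known genes. Genes nearest to HBEGF were ranked by Euclidean distance. The members and lists were chosen with earlier results of these data known. Sequences are from RefSeq (GRCh38.p14), matched by symbol, and their coordinates are of that build, not of the one of the files. Alternatives comprised pseudocounts of 0.1 and 5 RPKM, no filter and a filter at 5 RPKM, the authors' normalised values, scaling to the same upper quartile or to an equal sum, and summed rows. Python 3.11.15, pandas 2.3.3 and scipy 1.17.1 were used.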

Additional observations from a re-analysis of the deposited data

How the results depend on the processing

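Of the 30 differences of single members (10 genes in 3 comparisons), none that passed the 2-fold rule changed direction under any of the 8 alternatives. Those that passed were of HBEGF alone, in wild type against empty vector and in S264A against wild type. The filter settings and the summed rows left all 30 differences unchanged, and a pseudocount cannot turn a direction. Only the authors' normalised values and the scalings could have done so. Of 240 recomputed values, the unchanged ones included, 219 stayed within the counting interval and 21 did not. Of these values 4 turned sign, all of them receptors between S264A and wild type. The number of members past the rule in wild type against empty vector was 3 in place of 1 with a pseudocount of 0.1 RPKM, which added AREG and EREG, and went to 0 with one of 5 RPKM. With 5 RPKM it also went to 0 in S264A against wild type. A larger pseudocount shrinks differences of low genes by its construction. In S264A against empty vector it was 0 under every alternative. EREG, below the filter of 1 RPKM in both of these lines, was not counted there. Its log2 difference was 1.01 with a pseudocount of 0.1 RPKM.

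The ligand sum of the empty-vector line was 30.4 RPKM in the authors' normalised values, and that of the wild-type line 39.0 RPKM with scaling to an equal sum. The receptor sum was 54.6 RPKM with empty vector and 39.1 RPKM with wild-type THG-1 in the authors' normalised values. In wild type it was 39.7 RPKM with upper-quartile scaling and 36.8 RPKM with an equal sum, and in S264A 39.0 and 38.9 RPKM. In the authors' normalised values and with an equal sum the receptor sum of wild type was below that of S264A, the reverse of the small difference reported. The ratio of EGFR ligands to EGFR in the authors' normalised values, a check chosen after seeing the data, was 0.327 with empty vector, 1.14 with wild type and 0.624 with S264A. The scalings of the pathway lists were likewise chosen after seeing the data.

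No paired analysis was possible because each line had 1 library. For the same reason no library could be left out. Depth limits EPGN and BTC, which had 4 to 55 reads.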
